A study of Mus musculus with 25 samples.

Results

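The transient receptor potential (TRP) channel genes Trpa1, Trpm8, Trpm3, Trpv2 and Trpc5 were followed in the dorsal root ganglia of 25 BXD mouse strains. They were chosen as sensory TRP channels other than Trpv1, by the Ensembl identifiers that carry these symbols, and all 5 were found among the 16220 genes of the deposited table. Dorsal root ganglia hold the cell bodies of the sensory neurons and lie along the spinal cord. BXD strains are recombinant inbred lines from a cross of C57BL6/J with DBA2/J, so each line is a fixed mixture of both parental genomes. The mice were 8 weeks old, and every strain had 1 library, without treatment named in the labels. The 9 RwwJ strains were BXD44, BXD48, BXD55, BXD60, BXD68, BXD73, BXD77, BXD87 and BXD89. The 16 TyJ strains were BXD1, BXD2, BXD5, BXD6, BXD9, BXD11, BXD13, BXD14, BXD15, BXD16, BXD21, BXD28, BXD34, BXD36, BXD40 and BXD42. These endings of the strain name were the only labelled difference besides the strain, and neither sex nor the number of animals per library is given by the labels. The labels name no question beyond profiling the ganglia, and the strains imply a description of levels, ranges and co-variation and a comparison of RwwJ with TyJ.

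TRP channels are cation channels that open on temperature, chemicals or receptor signals and depolarise the nerve ending. Trpa1 responds to pungent irritants such as mustard oil, Trpm8 to cooling and menthol, and Trpm3 to heat and the steroid pregnenolone sulfate. Trpv2 is a relative of the capsaicin receptor Trpv1 that opens at noxious heat in transfected cells, and Trpc5 is a cold-activated and receptor-operated channel that is abundant in brain.

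Values are read counts that the authors scaled to a common upper quartile and rounded, called scaled counts here. Totals were 24637919 to 26860283 scaled counts per library, and the step between low values gave an estimated 20000000 to 40100000 reads. The neuronal genes Tubb3 (70436 to 109907 scaled counts) and Prph (43576 to 78205) were high in every library, and the Y-linked Ddx3y was at 1183 to 1940 in all of them. BXD48 stood apart: all 6 spinal cord list genes were highest there, for example Mobp at 2992 against 1233 in the next strain and Slc6a5 at 1502 against 337. Their mean log2 level, the spinal cord score, was 10.22 in BXD48 and 2.34 in the lowest library, BXD73. It was also high in BXD44 (8.42), BXD6 (8.36), BXD89 (8.24) and BXD77 (7.99). With 1 library per strain, a strain's value has no error of its own, and genotype, animal, dissection and library cannot be told apart. In whole ganglia, fewer cells of a type and less RNA per cell cannot be told apart either.

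Levels of different genes are compared per kilobase of merged exon length. On this scale Trpv2 was highest of the 5, at 558 ± 65 scaled counts per kb (SD, n = 25 strains). Trpa1 followed at 469 ± 144, and the order of these neighbours was not uniform: Trpv2 exceeded Trpa1 in 18 of 25 strains. Trpm8 came next at 127 ± 35, Trpm3 at 33.0 ± 7.1 and Trpc5 at 9.8 ± 6.1, and each of these lay below the one before it in 25 of 25 strains. Among the 21 TRP genes of the table, the 5 took ranks 3, 4, 7, 13 and 19, and Trpv1 was highest at 852 scaled counts per kb. The choice of length mattered for Trpm3, which was at 65.6 per kb of its longest transcript and still held rank 13. By the longest transcript Trpa1 was at rank 5 and Trpm8 at rank 10, and Trpv2 and Trpc5 kept ranks 3 and 19.

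Trpa1 differed 2.93-fold between its lowest and its highest strain, more than Trpm8 (2.68), Trpm3 (2.28) or Trpv2 (1.55). It had 1177 (BXD73) to 2904 (BXD77) scaled counts in RwwJ strains, with a median of 1615, against 1100 (BXD15) to 3220 (BXD2) in TyJ strains, with a median of 2297. The groups overlapped over nearly their whole range. The SD of log2(scaled count + 1) was 0.45 for Trpa1, at the 96.6 percentile among the 500 genes of nearest mean. The 90th percentile of the strains was 2.18 times the 10th. Counting error made up an estimated 0.55% of the variance of its scaled counts.

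Trpm8 had 363 (BXD55) to 790 (BXD73) scaled counts in RwwJ strains, with a median of 478, against 351 (BXD1) to 941 (BXD13) in TyJ strains, with a median of 592. No RwwJ strain lay outside the TyJ range. Its SD was 0.39 on the log2 scale and its 90th percentile was 2.03 times its 10th.

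Trpm3 had 639 (BXD60) to 1182 (BXD48) scaled counts in RwwJ strains, with a median of 857, against 519 (BXD40) to 1000 (BXD2) in TyJ strains, with a median of 824. BXD48 and BXD89 lay above every TyJ strain, and the 3 lowest values of all were the TyJ strains BXD40, BXD36 and BXD21. The SD was 0.32 and that ratio 1.8. Trpm3 is the host gene of miR-204, and a relative of this miRNA lies in another TRP gene, Trpm1, which was not analysed here. The mature miRNAs are printed because both share the seed, bases 2 to 8, in capitals. They come from RefSeq (GRCm38.p6), where miR-204-5p is at chr19:22750610-22750631 and miR-211-5p at chr7:64205831-64205852, both on the plus strand inside the host and on the host's strand. Neither miRNA was measured by these libraries.
mmu-miR-204-5p: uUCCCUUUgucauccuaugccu
mmu-miR-211-5p: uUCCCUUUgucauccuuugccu

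Trpv2 was the steadiest member, with an SD of 0.17, below the median of 0.25 over all 16152 genes tested. Among the 500 genes of nearest mean, this SD was at the 49.2 percentile, so it was ordinary for its level. It had 1988 (BXD55) to 2831 (BXD73) scaled counts in RwwJ strains, with a median of 2662, against 2006 (BXD5) to 3087 (BXD13) in TyJ strains, with a median of 2463. The ordered values had a gap: 5 strains (BXD55, BXD5, BXD15, BXD1 and BXD48) lay at 1988 to 2102, and the other 20 at 2353 to 3087. The low set held 2 RwwJ and 3 TyJ strains. BXD55, BXD15, BXD1 and BXD5 also had the lowest pan-neuronal scores (mean log2 level of neuronal markers) of the 25 libraries. These were 13.98, 14.08, 14.09 and 14.10, with BXD34 next at 14.14, while BXD48 was at 14.255. The part of neuronal content in the gap was not tested. The gap covered 25.6% of the log2 range, just past the 25% above which no correlation over all strains is given, so those of Trpv2 are over the upper 20 strains.

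Trpc5 was the lowest member and had the largest SD, 0.81 (0.66 with a pseudocount of 10), with a ratio of 3.34. Among the 500 genes of nearest mean, this SD was at the 86.2 percentile. By that measure Trpa1 (96.6) and Trpm8 (88.6) ranked above it, with Trpm3 at 86 and Trpv2 at 49.2. RwwJ strains had 27 (BXD55) to 156 (BXD48) scaled counts, with a median of 51, against 10 (BXD15) to 80 (BXD5) in TyJ strains, with a median of 34. BXD48 and BXD68 (95 scaled counts) lay above every TyJ strain, and the rest of the groups overlapped. Counting error made up an estimated 5.5% of the variance of its scaled counts, in which the BXD48 value counts heavily. The share on the log2 scale was not estimated. The antisense gene Trpc5os overlaps Trpc5, and with unstranded libraries reads from sequence shared by both genes cannot be told apart. BXD48, where Trpc5 and Trpm3 were highest, was also the library with the highest spinal cord genes; their part in these 2 values was not tested. With the spinal cord score, r was 0.18 for Trpm3 and 0.17 for Trpc5 over all strains, 0.78 and 0.45 within RwwJ, -0.34 and -0.12 within TyJ, and 0.01 and -0.06 over the strains without BXD48. The strains without BXD48 still included BXD44, BXD6, BXD89 and BXD77, whose spinal cord scores came next.

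A ratio of at least 2 between the 90th and 10th percentile was reached by 3 of the 5 members (Trpa1, Trpm8 and Trpc5), against 23.9% of all genes tested. The median SD of the members was 0.39, that of 16 further TRP channels 0.29, that of 14 genes that regulate TRP channels 0.24, and that of all genes 0.25. Of the 16 further channels, Trpv3 and Mcoln2 reached the ratio, at means of 22 and 15.2 scaled counts. Counting error took an estimated 25.8% and 44.9% of the variance of their scaled counts. Among the regulators it was reached by F2rl1, the protease-activated receptor 2, and Oprm1, the mu opioid receptor.

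**Figure D1:**
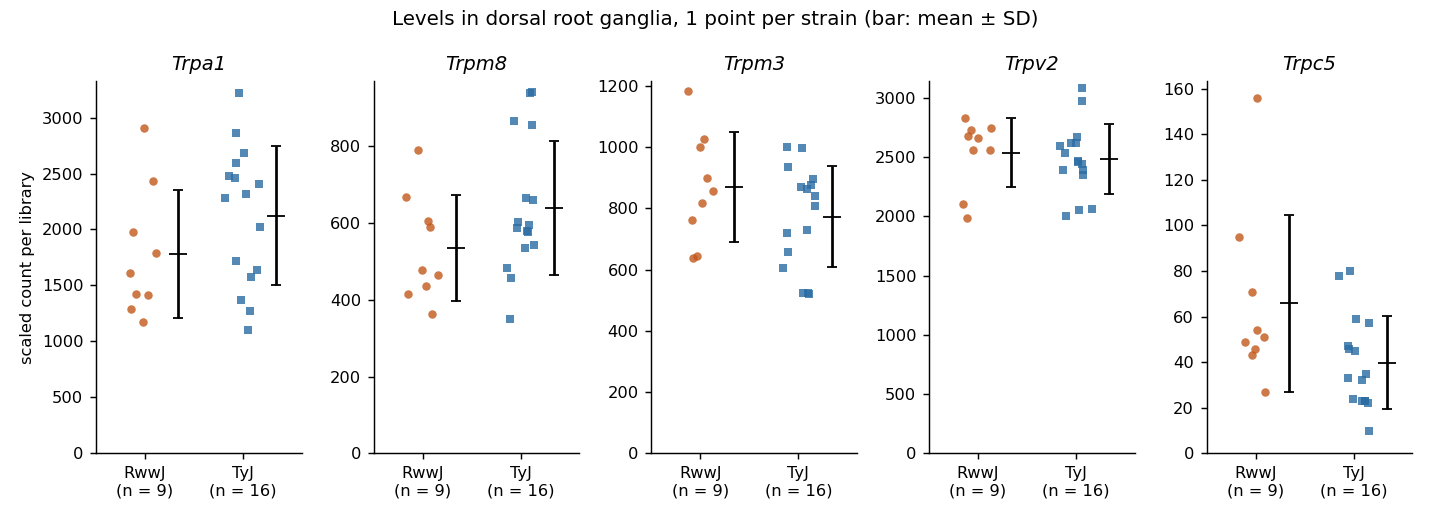
Scaled count of each channel gene (vertical axis, from 0) in the RwwJ and TyJ strains; each point is 1 strain and the bars give the mean ± SD. The groups overlap for all 5 genes, and the Trpc5 value of 156 in BXD48 stands above the next, 95 in BXD68.

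The comparison of RwwJ with TyJ asked whether the channels differed between the 2 sets of lines. Trpc5 had the largest difference of the members: it averaged 65.8 ± 38.8 scaled counts in RwwJ strains and 39.8 ± 20.5 in TyJ strains (SD, n = 9 and 16), and 8 of 9 RwwJ strains lay above the TyJ mean. By limma the log2 difference, RwwJ minus TyJ, was 0.72 ± 0.30 (SE), with an unadjusted p of 0.0236 and an adjusted p of 0.304 over all genes tested. An exact two-sided permutation of the rank sum over all 2042975 splits gave p = 0.0441 for Trpc5, the smallest of the 5 members. Without BXD48 the Trpc5 difference was 0.54. Trpc5 missed the adjusted threshold under every alternative that tested it, with limma adjusted p of 0.176 to 0.9997. The alternative filter, a mean of at least 50, left Trpc5 out at its mean of 49.2.

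The other members did not pass either. Trpa1 averaged 1781 ± 571 scaled counts in RwwJ and 2125 ± 617 in TyJ strains, a log2 difference of -0.25 ± 0.18 (limma adjusted p = 0.476), and 2 of 9 RwwJ strains lay above the TyJ mean. Trpm8 averaged 535 ± 138 in RwwJ and 640 ± 174 in TyJ strains, a difference of -0.25 ± 0.15 (limma adjusted p = 0.411), again with 2 of 9 above. Trpm3 averaged 870 ± 179 in RwwJ and 773 ± 166 in TyJ strains, a difference of 0.18 ± 0.13 (limma adjusted p = 0.487). For Trpv2, with 2539 ± 294 in RwwJ and 2483 ± 296 in TyJ strains, the difference was 0.03 ± 0.07 (limma adjusted p = 0.839). A p that misses the threshold does not show that the groups were alike.

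Over all genes the count of calls was as low. At an adjusted p under 0.05, limma called 0 of 16152 genes (0%), and at an unadjusted p under 0.05 it had 2440 genes (15.1%), 1000 higher and 1440 lower in RwwJ; with median-of-ratios scaling that split was 1302 and 1140. Higher in RwwJ at an unadjusted p under 0.05 were 6.19% of all genes, and 1 of the 5 members. Of 23 further TRP channels listed, 16 were in the table and 0 of these reached an unadjusted p of 0.05, with 10 higher and 6 lower in mean. Of the 14 regulators, 0 passed adjusted and 1 unadjusted: Bdkrb2, the bradykinin B2 receptor, averaged 57.4 in RwwJ and 45.1 in TyJ strains. Tmem100, an adaptor between Trpa1 and Trpv1, was at -0.21 ± 0.10, and Pirt, a Trpv1 and Trpm8 partner, at 0.07 ± 0.07, neither past the threshold.

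Correlations over strains then asked which channels moved together. All used log2(scaled count + 1), with permutation p-values over 100000 resamples, and were adjusted together over 100 correlations: 10 pairs of members, and each member with Trpv1 and 17 cell type scores. A score is the mean log2 level of a marker list. None of the 10 pairs passed the adjustment by r or by rho. By r, Trpm3 and Trpc5 came nearest (r = 0.50, permutation p = 0.0116, adjusted p = 0.145; rho = 0.42, adjusted p = 0.198). Their r was 0.41 without the 2 strains farthest from the Trpm3 median, 0.51 within RwwJ, 0.41 within TyJ and 0.39 without BXD48. Trpv2 and Trpc5, nearest by rho, had r = 0.47 over 20 strains (permutation p = 0.036, adjusted p = 0.298; rho = 0.48, adjusted p = 0.194), but 0.11 within RwwJ. Each of the other 8 pairs had an r between -0.11 and 0.35. Trpv1, the capsaicin receptor that marks nociceptors, did not pass with any member either, with r between -0.04 and 0.30.

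Trpm8 was lower in the strains with higher erythroid, macrophage and fibroblast scores. It had r = -0.68 with the erythroid score (permutation p = 0.00018, adjusted p = 0.0165; rho = -0.60, adjusted p = 0.048), r = -0.67 with the macrophage score (permutation p = 0.00033, adjusted p = 0.0165; rho = -0.61, adjusted p = 0.048) and r = -0.61 with the fibroblast score (permutation p = 0.00117, adjusted p = 0.039; rho = -0.64, adjusted p = 0.048). These were the 3 of 90 such correlations past the threshold by r. Within RwwJ strains they were -0.87, -0.81 and -0.79, and within TyJ strains -0.78, -0.70 and -0.65. Without BXD1 and BXD55, the strains farthest from the Trpm8 median, they were -0.63, -0.55 and -0.45. BXD1 had the lowest Trpm8 and the highest erythroid and macrophage scores, BXD13 the highest Trpm8 and the lowest erythroid score, and without BXD1 none of the 90 passed. The fibroblast correlation lost its call in 14 of the 25 fits that left out 1 strain, and was -0.53 with no call once the length balance described further on was regressed out. The part of these cell types in the Trpm8 level was not tested. With the pan-neuronal score, Trpm8 had r = 0.40 (permutation adjusted p = 0.298).

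Between the remaining channels and the scores, 1 more correlation passed by rho alone: Trpv2 with the myelinating Schwann cell score, over 20 strains (rho = -0.66, permutation adjusted p = 0.048; r = -0.56, adjusted p = 0.145). Its r was -0.78 within RwwJ, -0.52 within TyJ and -0.74 without the 2 strains farthest from the Trpv2 median. Over all 25 strains, the 5 low ones included, 4 Trpv2 correlations passed by r: those with the pan-neuronal, fibroblast, endothelium and mural, and macrophage scores. The myelinating Schwann cell score was not among them. Trpa1 had its largest r with the score of C-low-threshold mechanoreceptors, unmyelinated touch neurons (r = 0.53, permutation adjusted p = 0.133), and a negative one with large-diameter neurons (r = -0.49, adjusted p = 0.145). Trpm3 had r = -0.56 with the peptidergic nociceptor score (permutation adjusted p = 0.0837), but 0.11 without BXD21, BXD36 and BXD40. For Trpc5 the largest were -0.52 with fibroblasts (permutation adjusted p = 0.133) and 0.47 with non-peptidergic nociceptors (adjusted p = 0.163). These 5 did not pass the threshold.

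**Figure D2:**
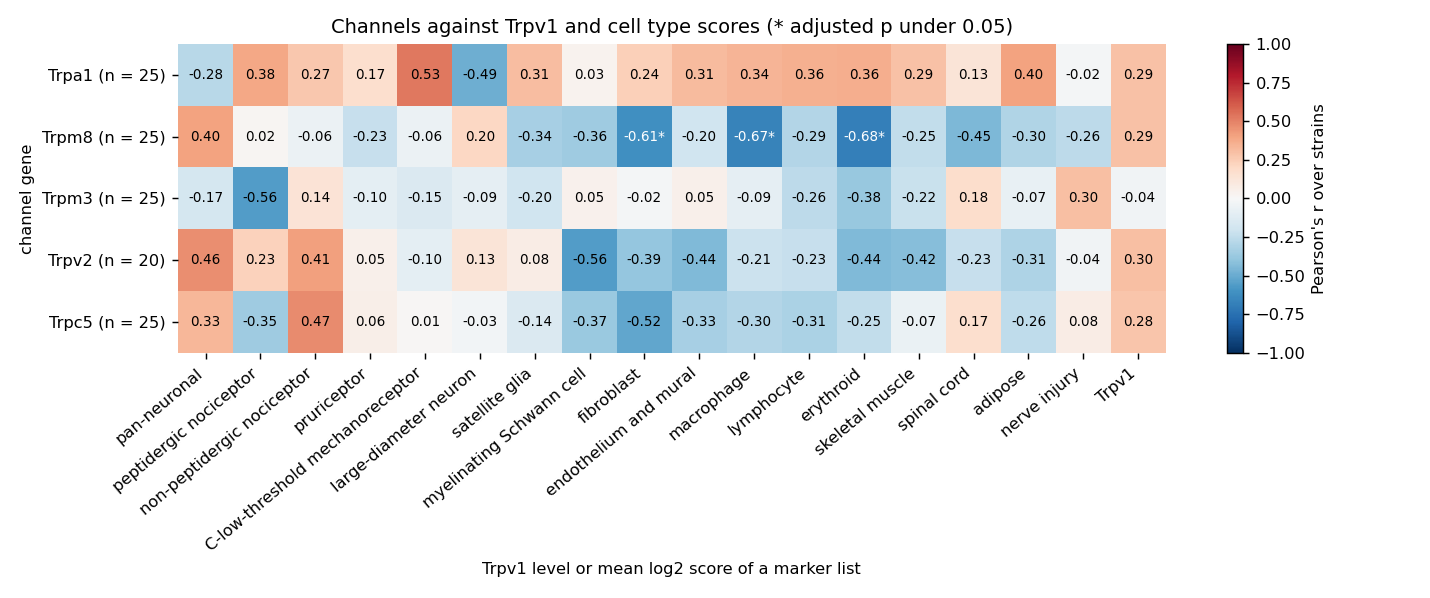
Pearson's r over strains of each channel gene (rows) with Trpv1 and 17 cell type scores (columns); colour gives r from -1 to 1 and an asterisk marks an adjusted p under 0.05. The marked cells are Trpm8 with the fibroblast, macrophage and erythroid scores (-0.61, -0.67 and -0.68); Trpv2 is over 20 strains.

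The genes whose levels followed each channel most closely were then sought over the whole table; these r values describe a search over 15641 annotated genes with a mean of at least 10 scaled counts, and carry no p. All points share their libraries, scaling and depth. The lowest r of Trpa1 over the 25 strains were with 2 genes of its own stretch of chromosome 1: Stau2, which encodes an RNA-binding protein of neuronal RNA transport, at -0.82, and the non-coding gene Gm9947 at -0.75. Stau2 is the seventh measured gene on one side of Trpa1, and Gm9947 is its immediate neighbour on the other. Within RwwJ the values were -0.86 and -0.74, and within TyJ -0.77 and -0.72. Leaving out each strain in turn kept r of Trpa1 with Stau2 between -0.86 and -0.79, and with Gm9947 between -0.81 and -0.73.

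BXD2 had the highest Trpa1, 3220 scaled counts, with the lowest Stau2, 2577. BXD15, with the lowest Trpa1 of 1100, had 3242 scaled counts of Stau2 and 36 of Gm9947, while BXD60 held the highest Stau2, 3335, at a Trpa1 of 1417. Gm9947 was lowest in BXD1, at 9 scaled counts beside 2475 of Trpa1, and highest in BXD16, at 57 beside 1276. BXD42 was an exception, with low Stau2 (2699) and Gm9947 (12) at a Trpa1 of 1639. Gm9947 is annotated as antisense to Msc, which it overlaps. The libraries did not mark strand, so reads from sequence shared by both genes cannot be told apart. The r of Msc itself with Trpa1 was 0.05.

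**Figure D3:**
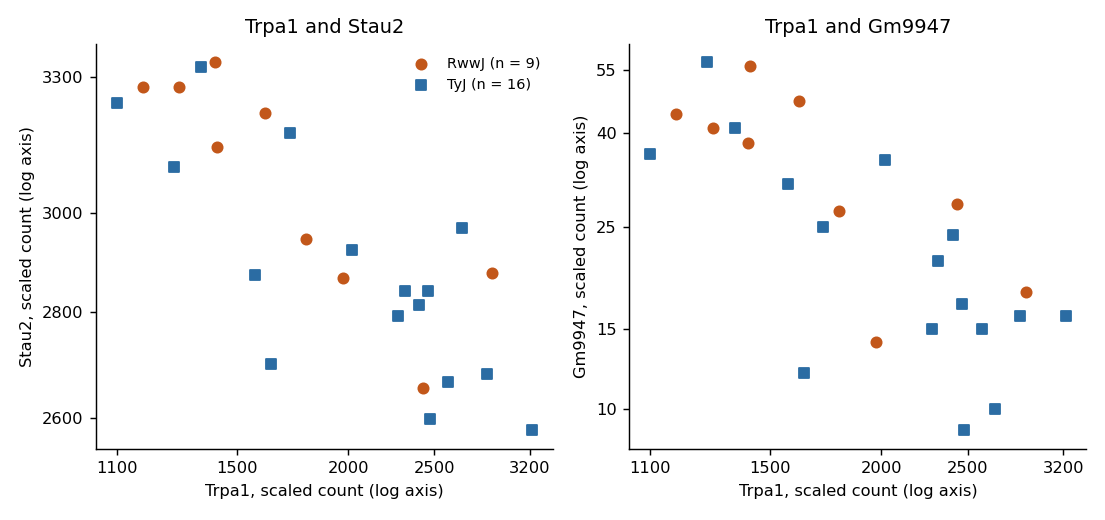
Scaled counts of Stau2 (left) and Gm9947 (right) against those of Trpa1, both on log axes; each point is 1 strain. Both genes fall along Trpa1 in the RwwJ and in the TyJ strains, with r of -0.82 for Stau2 and -0.75 for Gm9947 over 25 strains.

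Other genes near Trpa1 moved with it in both directions. Among the 20 measured genes on each side, 8 of 40 had an absolute r of at least 0.5 (20%), against 3.14% of all genes tested. This window and limit, and the 8 genes, were chosen after values were seen. Besides Stau2 and Gm9947, Lactb2 (r = -0.63) and the retinol dehydrogenase gene Rdh10 (-0.58) were lower where Trpa1 was higher; for Rdh10 the value was -0.14 within RwwJ and -0.74 within TyJ. Tmem70, an assembly factor of the mitochondrial ATP synthase (0.65), the kinase gene Sgk3 (0.62), Ly96, the toll-like receptor partner MD-2 (0.62), and Tram1 (0.57) were higher. The nearest measured gene on the Stau2 side, the potassium channel gene Kcnb2, had an r of 0.16, and Eya1 and Msc had -0.04 and 0.05. Terf1, next after Kcnb2, was just short of the limit at -0.495 (-0.64 within RwwJ and -0.48 within TyJ). Sbspon, after Terf1, had -0.22 (0.004 within RwwJ and -0.53 within TyJ). Genotypes of the strains were not used here.

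The other channels were set beside all genes in the same way. For Trpm8 the count was 4 of 40 (10%) against 7.78% of all genes, and its 3 nearest genes on each side had r between -0.22 and 0.21. For Trpv2 the count was 4 of 40 (10%) against 5.34% over 20 strains, with Lrrc75a (-0.69) and Mmgt2 (-0.65) among the 3 nearest. Trpm3 had 14 of 40 (35.0%) against 25.7%, and Trpc5 13 of 40 (32.5%) against 17.6%, including its neighbour on one side, Rtl4 (0.71), and Dcx (0.51); the neighbour on the other side, Alg13, had -0.07. With the length balance of the library, described further on, regressed out, the count was 6 for Trpm3 and 1 for Trpc5. The difference between a window and all genes was not tested.

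**Figure D4:**
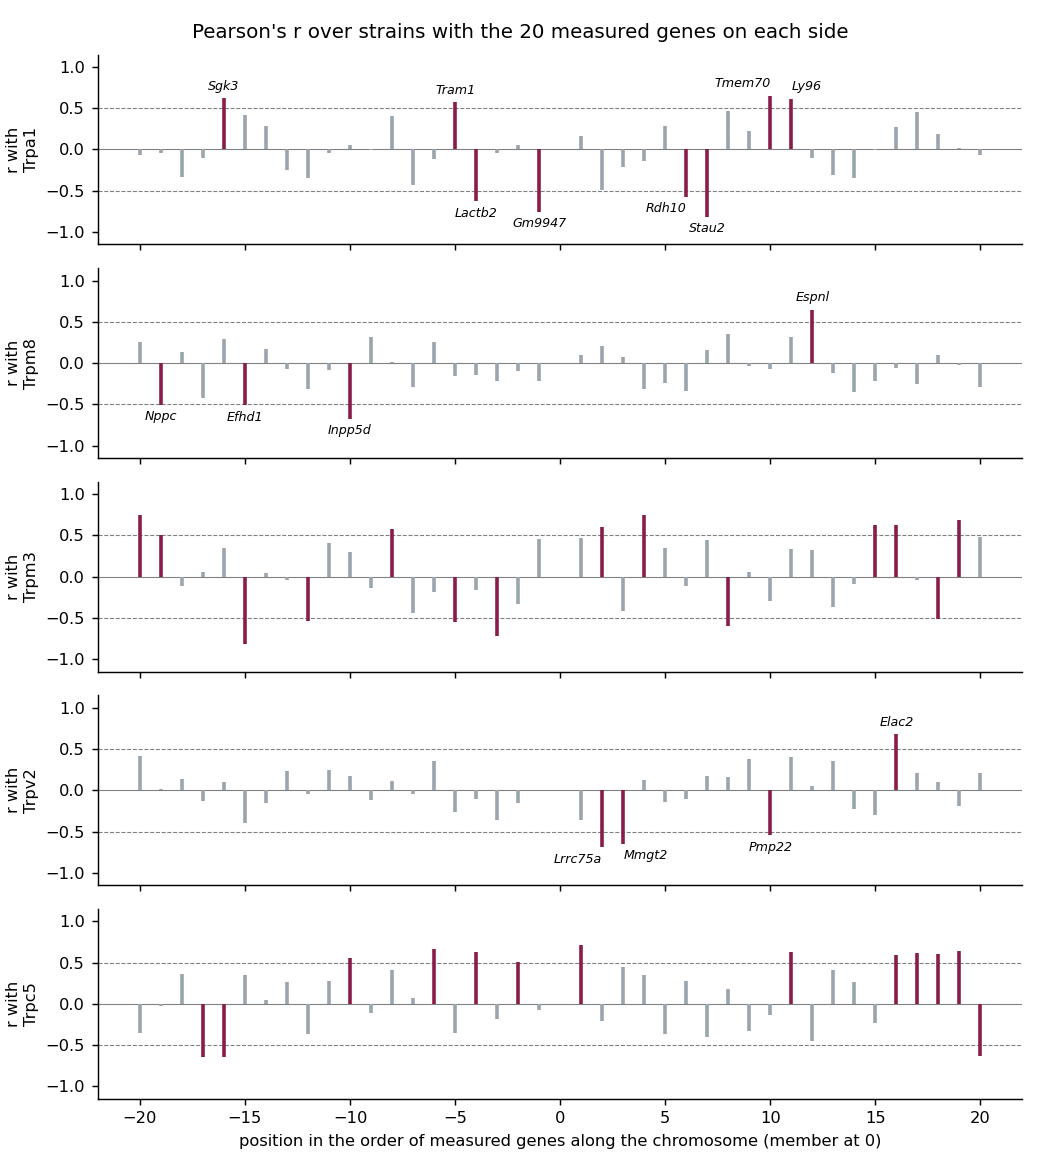
Pearson's r over strains of each channel gene with the 20 measured genes on each side of it, by their order along the chromosome; dashed lines mark 0.5 and -0.5 and dark bars reach them. Trpa1 has 8 of 40 such genes against 3.14% of all genes, and Trpm3 has 14 of 40 against 25.7%.

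Elsewhere in the genome, Trpa1 was followed by Tspan14 (r = 0.74), Ear6 (0.74) and Ncoa4 (0.72), all 3 on chromosome 14, and by Prg3 (0.72) and Bsg (0.70). Ear6 and Prg3 encode eosinophil granule proteins and were low, at means of 24.6 and 11.2 scaled counts. Fam184a had the third lowest r (-0.67). Trpm8 was followed by Shc2 (0.82), an adaptor of receptor tyrosine kinases in neurons, Slc34a2 (0.78), Agap3 (0.76), Slc25a16 (0.75) and Usp20 (0.75). Its lowest r were with the lysosomal enzyme gene Hexa (-0.79), Nrgn (-0.75) and Emp3 (-0.74). Trpv2 over 20 strains was followed by Ccdc60 (0.81), L3mbtl2 (0.80), Hells (0.78), Sqle (0.76) and Ubap2l (0.74), with Ccnb1ip1 (-0.87), Plekhf1 (-0.82) and Sipa1l2 (-0.80) lowest.

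For Trpm3 and Trpc5 many genes moved along. Trpm3 was followed by the chromatin genes Atrx (r = 0.88) and Ep300 (0.88), by Ago1 (0.88), which encodes a small RNA effector, and by Trim33 (0.87) and Map3k2 (0.86). Among its lowest were the splicing gene Snrpb2 (-0.91) and Pcp4 (-0.90). Trpc5 was followed by Lonrf2 (0.80), Eml5 (0.79), the receptor phosphatase gene Ptprt (0.78), Gpr173 (0.77) and Gpc5 (0.77). Its lowest were Ost4 (-0.77), Fnta (-0.77) and Capza1 (-0.76).

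A measure of transcript length was added after the data were seen. The length balance of a library is the mean log2 level of the 10% of genes with the longest exon length (9.73 kb or more, 1565 genes) minus that of the shortest 10% (1.62 kb or less, 1566 genes). It was lowest in BXD40 (1.81), BXD36 and BXD21 (1.97), the strains with the lowest Trpm3, and highest in BXD68 (2.83). RwwJ libraries averaged 2.56 ± 0.17 and TyJ libraries 2.32 ± 0.28 (SD, n = 9 and 16). Exon length was 24.4 kb for Trpm3 and 5.01 kb for Trpc5.

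Trpm3 had r = 0.68 with the length balance (rho = 0.52), and Trpc5 r = 0.65 (rho = 0.75), with permutation p, adjusted over 10 added correlations, of 0.00185 and 0.00185. Trpc5 kept its r within RwwJ (0.50), within TyJ (0.60) and without BXD21, BXD36 and BXD40 (0.65). For Trpm3 the relation was in the TyJ strains: it was 0.84 there, 0.02 within RwwJ and 0.35 without those 3. Trpa1 and Trpm8 passed by rho alone: Trpa1 had r = -0.41 (permutation adjusted p = 0.0728; rho = -0.45, adjusted p = 0.0434), and Trpm8 r = 0.37 (adjusted p = 0.0822; rho = 0.45, adjusted p = 0.0434). Within RwwJ the Trpa1 value was -0.87 and within TyJ -0.18. The Trpm8 value was 0.64 within RwwJ, 0.61 within TyJ and 0.55 without BXD21, BXD36 and BXD40. Trpv2 had r = 0.12 over 20 strains, 0.31 within RwwJ, -0.03 within TyJ and 0.51 without BXD21, BXD36 and BXD40. The remaining added correlations were with the first principal component of the libraries. By r, Trpm3 (0.60, permutation adjusted p = 0.00493) and Trpc5 (0.47, adjusted p = 0.0416) passed there too. By rho, Trpc5 (0.56, adjusted p = 0.0212) and Trpm8 (0.48, adjusted p = 0.0373) passed, and Trpm3 did not (0.37, adjusted p = 0.0851). The relation over all strains was thus not shown to be particular to transcript length. With the first component, r of Trpc5 was 0.015 within RwwJ, 0.49 within TyJ and 0.38 without BXD21, BXD36 and BXD40. For Trpm3 these values were -0.42, 0.83 and 0.13. With the length balance regressed out, r of Trpm3 with Trpc5 was 0.09 in place of 0.50. The share of all genes with an absolute r of at least 0.5 was then 14% for Trpm3, 2.47% for Trpc5, 2.65% for Trpa1, 6.97% for Trpm8 and 11.2% for Trpv2. The windows then held 9 of 40 such genes for Trpa1, 5 for Trpm8, 6 for Trpm3, 7 for Trpv2 and 1 for Trpc5, which was Rtl4 (0.66). The part of RNA quality or library preparation in this measure was not tested.

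The length balance also moved the RwwJ comparison. With it as a covariate in limma, the Trpc5 difference was 0.29 ± 0.28 and that of Trpm3 -0.03 ± 0.11, in place of 0.72 and 0.18. The Trpm8 difference was -0.48 ± 0.14 in place of -0.25, with an unadjusted p of 0.00171 and a limma adjusted p of 0.9995. Genes at an unadjusted p under 0.05 numbered 507 of 16152 (3.14%), against 2440 without the covariate.

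**Figure D5:**
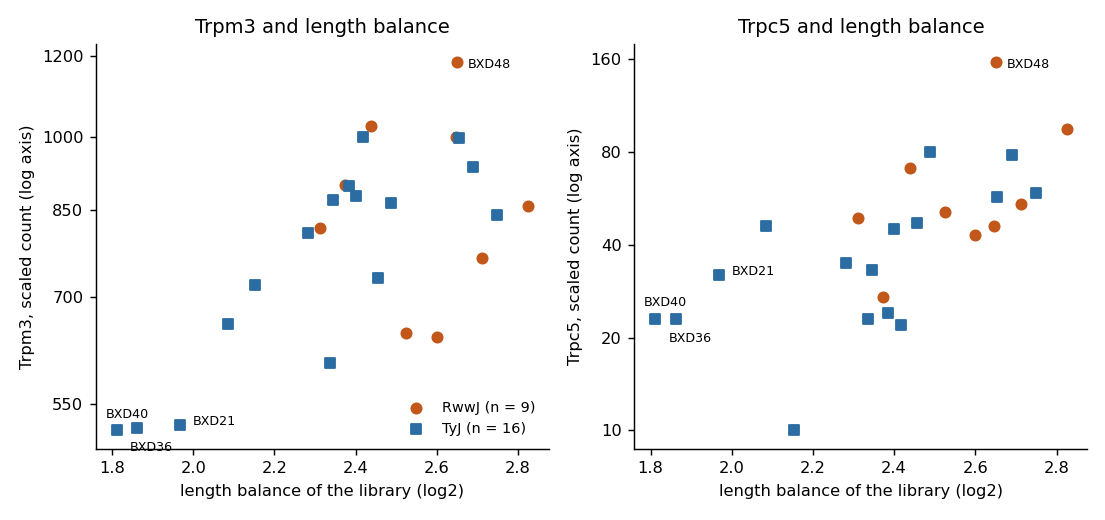
Scaled counts of Trpm3 (left) and Trpc5 (right), on log axes, against the length balance of each library (log2 units); each point is 1 strain. BXD40, BXD36 and BXD21 sit lowest in balance and in Trpm3, and r is 0.68 for Trpm3 and 0.65 for Trpc5.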

How the data were processed

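RNA of whole dorsal root ganglia was sequenced in 25 strains, 1 library each, with an unstranded TruSeq preparation, per the labels' protocols. CASAVA 1.8.0, TopHat2 2.0.9 and HTSeq, and the builds NCBIM37 and mm9, are named in the submitters' processing notes. The deposited values are a score: read counts per gene that, from the values themselves, the authors scaled to a common upper quartile and rounded to whole numbers, so no count model was used. Scaling hides depth, and the reads given are estimates from the steps between low values.

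Genes with a mean of at least 10 scaled counts were tested on log2(value + 1) with limma 3.58.1 (R 4.3.3, trended prior, Benjamini-Hochberg adjustment, threshold 0.05), RwwJ minus TyJ. The fit was tested on simulated data. Correlations used 100000 permutations (scipy 1.17.1); the exact rank sum replaced a planned resampling. Gene names, order and exon length came from GENCODE vM21, a later build, so no coordinates were taken from it. The members and gene lists were chosen with earlier results of these data known. The genes named were the members, the listed TRP channels and regulators where a count names them, each member's 5 highest and 3 lowest correlated genes, and its 3 measured neighbours on each side. Some genes under this rule are not reported here. The further genes near Trpa1, the window of 20 genes a side and the limit of 0.5 were chosen after seeing the data. So were the length balance, the first principal component, the exact rank sum and Trpv2 over all strains. Alternatives covered the pseudocount, filter, scaling, library weights, covariates and strains left out. Strains are not replicates of 1 genotype, so p-values measure the spread between strains.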

Additional observations from a re-analysis of the deposited data

Results flagged for a closer look

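In groups of 4 to 10 samples, a value far from the others was sought in 52 measures over the 9 RwwJ strains, and 5 stood out; chance marks about 1 in 20 groups, and no member was among them. BXD55 held 4 of these. Its Trpm6, a magnesium channel gene, was highest at 229 scaled counts, with the next RwwJ strain at 124. Its Pkd2, a polycystin channel gene, was highest at 1867, with the next at 1183. Its S1pr3, a sphingosine 1-phosphate receptor gene, was lowest at 2491, with the next at 3307. Its non-peptidergic nociceptor score was lowest at 12.0454 log2 units, with the next at 12.51. BXD48, the library with the highest spinal cord genes, had the highest Akap5, a scaffold of kinases at channels, at 107 scaled counts against 56 in the next.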

How the results depend on the processing

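Over 23 single results and 128 values under other settings than leaving out 1 strain, 114 kept their direction and side of the threshold and 3 changed sign. Those 3 were small differences between RwwJ and TyJ: Trpm3 at -0.031 with the length balance as a covariate and -0.074 with it and without BXD48, and Trpv2 at -0.028 with the pan-neuronal score as a covariate. With the pan-neuronal score regressed out, 1 pair of members passed, Trpm3 with Trpc5. Of the correlations with scores, 0 passed within RwwJ, 1 within TyJ and 8 with Trpv2 over all 25 strains. Genes called between RwwJ and TyJ numbered 6 with array weights, 3 without BXD48 and 3 with the length balance as a covariate without BXD48. The cause of these changes was not tested.

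Leaving out 1 strain at a time, 0 to 0 member pairs passed, 0 (without BXD1) to 4 (without BXD6) score correlations, and 0 to 3 genes were called, with 3 without BXD48 and 1 each without BXD34, BXD40, BXD55, BXD60 and BXD87. The r of Trpm8 with the fibroblast score lay between -0.66 and -0.54 and lost its call in 14 of 25; with macrophages it lay between -0.75 and -0.60 and with erythroid cells between -0.74 and -0.61, each losing its call without BXD1. No paired analysis was possible because every strain had 1 library and replicate numbers only name samples in accession order. A strain's own error cannot be estimated, and counting error limits Trpc5 most among the members.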
